A study of Mus musculus with 16 samples.

Results

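The pyruvate dehydrogenase complex and the enzymes that switch it off and on were described in mouse hearts through 10 genes chosen by name among the 30153 genes of the deposited table. They are 4 kinases (Pdk1, Pdk2, Pdk3 and Pdk4), 2 phosphatases (Pdp1 and Pdp2) and 4 core subunits (Pdha1, Pdhb, Dlat and Pdhx). The set was taken up because differences in Pdk4 between these groups were already known, so Pdk4 is described here without a test; the other 9 members were tested. Hearts of 16 mice were sequenced in 4 groups, all on the C57/BL6 strain. The groups were C57 adult mice without the transgene (n = 3), transgenic mice called Hap-I that were aged (n = 4), that were aged and fed a western diet (n = 5), or that were adult and fed a western diet (n = 4). Hap-I mice overexpress the human angiotensin II type 1 receptor in its haplotype I form. For the adult Hap-I group the series' design names no diet whereas the sample labels do, and the labels were followed. No group of aged or western-diet C57 mice was analysed here, so in comparisons with C57 genotype cannot be told apart from age (aged Hap-I), from diet (adult western-diet) or from both (aged western-diet). The labels give no sex, age in months, feeding state or hour of collection, and neither the promoter that drives the transgene nor the number of founder lines.

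The complex sits in the mitochondrial matrix and turns pyruvate into acetyl-CoA, the step that commits carbon from glucose to oxidation. Kinases of the Pdk family phosphorylate its E1 alpha subunit and switch it off, and the phosphatases remove those phosphates and switch it on again. In the heart, which burns mostly fatty acids, Pdk4 is known as the kinase gene that rises with fasting, fat feeding and the fatty acid receptor PPAR alpha. Transcripts report neither the amount of each protein nor its phosphorylation.

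Levels are scaled TPM, read estimates corrected for transcript length and for library total and then divided by a size factor for each library, and so can be compared between genes. Errors of levels are SD over animals. Differences are log2 differences of scaled TPM + 1 from 1 limma model of all 16 libraries, given with their standard error (SE), and p-values are adjusted by Benjamini-Hochberg over the 11415 genes kept. All 10 members passed the filter of at least 1 TPM in at least 3 libraries. Pdk3 is the member closest to it, at a mean of 1.24 scaled TPM over the libraries.

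The libraries differed in ways the group labels do not give. Replicates 1 to 3 of the aged western-diet group and replicates 1 and 2 of the adult western-diet group held almost no Y-linked transcripts, and the other 11 libraries held them. The 10 markers of ventricular cardiomyocytes were abundant in every library. Their sums were 47396 to 52030 scaled TPM in C57 and 38995 to 49508 in aged Hap-I hearts. They were 36526 to 44649.5 in aged western-diet and 35947 to 46209 in adult western-diet hearts. Each western-diet heart thus lay below each C57 heart in that sum. The summed 5 atrial markers ranged from 230 to 6779 in C57 hearts, from 97.1 to 5082 in aged Hap-I, from 86.1 to 199 in aged western-diet and from 33.9 to 1173 in adult western-diet hearts. The summed 9 skeletal muscle markers were 150 to 328 in aged western-diet hearts and 64.0 to 118 in aged Hap-I hearts, without overlap, against 45.5 to 105 in C57 and 43.3 to 188 in adult western-diet hearts. Acta1, which heart muscle also expresses, made up most of that sum at 41.1 to 325, Tnni2 was at 1.13 to 3.00, and the fast myosin genes Myh1, Myh2 and Myh4 were at or under 0.168 in every library. The summed 7 white adipocyte markers were 12.9 to 25.03 in C57, 6.86 to 24.1 in aged Hap-I, 6.995 to 10.7 in aged western-diet and 7.95 to 13.4 in adult western-diet hearts. Lipe was detected in every library, at 5.26 to 10.9, and Plin1 was at 0 in 12. The rank correlation of a library's deviations from the gene means with transcript length was -0.19 to -0.08 in C57 and 0.02 to 0.28 in aged Hap-I hearts, without overlap, -0.18 to 0.31 in aged western-diet and -0.25 to 0.18 in adult western-diet hearts. The summed 5 fibroblast markers were 314 to 342 in C57, 220 to 286 in aged Hap-I, 180 to 263 in aged western-diet and 201 to 276 in adult western-diet hearts. Each Hap-I heart thus lay below each C57 heart in that sum. The summed 5 endothelial markers were 136 to 176 in C57 and 145.5 to 150.3 in aged Hap-I hearts. They were 83.5 to 190 in aged western-diet and 85.7 to 144.8 in adult western-diet hearts. The part of the ventricular, endothelial, skeletal and fibroblast markers in the results was not tested. In bulk heart tissue, fewer cells of a type and less RNA per cell cannot be told apart.

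Beyond Pdk4, few members passed the test in any comparison. None of the 9 passed between aged western-diet and aged Hap-I hearts, where 0.166% of all genes did, between aged and adult western-diet hearts, where 2.39% did, or between aged Hap-I and adult western-diet hearts, where 2.14% did. None passed between adult western-diet and C57 hearts, against 3.45% of all genes. Pdp1 was higher in aged Hap-I than in C57 hearts, 1 of 9 members, where 11.2% of all genes passed and 7.18% were higher. Between aged western-diet and C57 hearts Pdk1 was higher and Pdhb lower, where 21.9% of all genes passed, 12.3% as higher and 9.57% as lower. The limma p-value before adjustment was under 0.05 for 2, 0, 1, 1, 1 and 3 members in these comparisons, in the order aged western-diet minus aged, aged western-diet minus adult western-diet, aged minus adult western-diet, aged minus C57, adult western-diet minus C57, and aged western-diet minus C57. Groups did not overlap for 2 of the 9 members between aged western-diet and aged Hap-I hearts (7.14% of all genes), for 0 between aged and adult western-diet hearts (6.31%) and for 1 between aged Hap-I and adult western-diet hearts (16.0%). Against C57 they did not overlap for 1 member in aged Hap-I (34.1% of all genes) and 1 in aged western-diet hearts (23.4%), and 1 member was lower without overlap in adult western-diet hearts (8.20% of all genes lower in that way). The median difference of the 9 was -0.13, -0.01, 0.06, 0.16, 0.02 and 0.00, and that of all genes was within 0.01 of 0 in each. These comparisons share groups and are not independent.

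Pdk4 was the member that varied most. Its lowest and highest libraries, 29.2 and 250.03 scaled TPM, stood 8.55-fold apart. Pdk2, the kinase gene with the highest mean over all libraries, 146, spanned 1.31-fold.

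**Figure D1:**
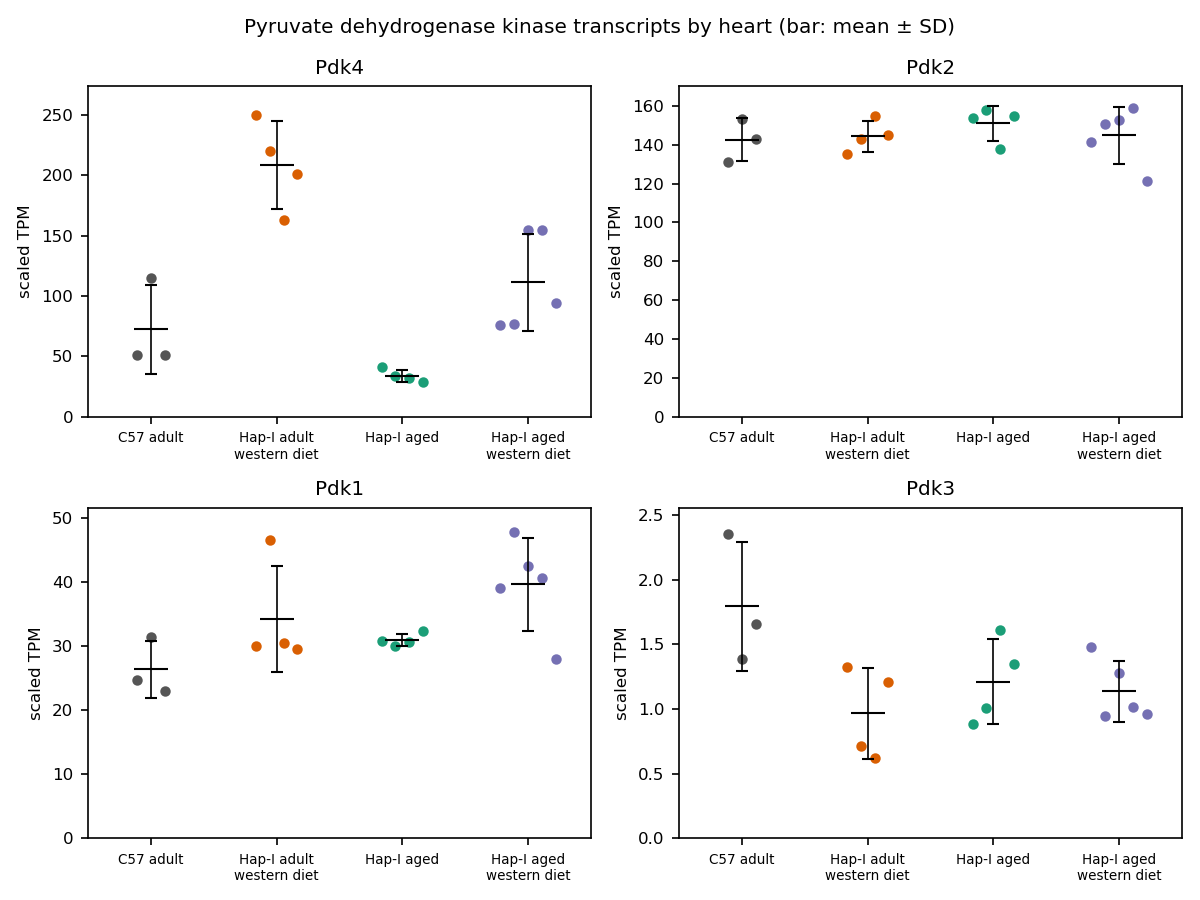
Scaled TPM (y axis, from 0) of the 4 kinase genes in each heart (points) by group, with mean and SD (bars). The Pdk4 groups lie apart except for C57 and aged western-diet hearts, and the Pdk2 libraries all lie between 121 and 159.

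Pdk4 measured 40.9, 33.5, 32.1 and 29.2 scaled TPM in aged Hap-I hearts. In aged Hap-I hearts on the western diet it measured 75.8, 77.2, 155, 155 and 94.7, so the 2 groups did not overlap. In adult western-diet hearts it measured 250.03, 220.2, 163 and 201, above every other library. C57 hearts gave 51.2, 115 and 51.5, with replicate 2 set apart from the other two and within the range of the aged western-diet group. The group means were 33.9 ± 5.0 in aged Hap-I (n = 4), 72.7 ± 36.9 in C57 (n = 3), 111 ± 40.3 in aged western-diet (n = 5) and 209 ± 36.5 in adult western-diet hearts (n = 4). In that order of levels, the neighbours C57 and aged western-diet overlapped and the other neighbours did not.

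The log2 difference of Pdk4 between aged western-diet and aged Hap-I hearts was 1.62 ± 0.26 (SE), a 3.08-fold higher level on the diet. Aged western-diet hearts differed from adult western-diet hearts by -0.95 ± 0.26, and aged Hap-I hearts differed from the same adults by -2.58 ± 0.28, a 5.97-fold lower level with age and diet both differing. Against C57, Pdk4 differed by -0.98 ± 0.30 in aged Hap-I, 1.60 ± 0.30 in adult western-diet and 0.65 ± 0.28 in aged western-diet hearts. Without C57 replicate 2 these 3 differences became -0.59, 1.98 and 1.03. Restricted to the 11 libraries holding Y-linked transcripts, the difference between aged and adult western-diet hearts was -0.57 ± 0.36, and that between aged western-diet and aged Hap-I hearts was 1.82 ± 0.31. With the atrial markers as a covariate, these differences were -0.97 ± 0.29 and 1.60 ± 0.30.

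The start of the Pdk4 gene is printed with those of Pdk2, its steady relative, and of Ucp3, the gene whose levels followed Pdk4 most closely, because Pdk4 and Ucp3 moved alike across the hearts while Pdk2 hardly moved. Each window runs from 250 bases before to 50 after the RefSeq start, on build GRCm38.p6, 5′ to 3′ on the gene's own strand. Pdk4 lies at chr6:5496229-5496528 on the minus strand, Pdk2 at chr11:95041322-95041621 on the minus strand and Ucp3 at chr7:100472741-100473040 on the plus strand. Capitals mark matches, on either strand, to 7 short motifs.
Pdk4: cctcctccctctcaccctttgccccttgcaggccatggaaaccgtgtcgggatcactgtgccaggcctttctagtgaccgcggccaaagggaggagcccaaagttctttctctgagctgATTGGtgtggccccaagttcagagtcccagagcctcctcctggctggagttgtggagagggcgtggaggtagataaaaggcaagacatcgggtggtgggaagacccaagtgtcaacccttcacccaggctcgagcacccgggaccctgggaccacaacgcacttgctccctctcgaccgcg
Pdk2: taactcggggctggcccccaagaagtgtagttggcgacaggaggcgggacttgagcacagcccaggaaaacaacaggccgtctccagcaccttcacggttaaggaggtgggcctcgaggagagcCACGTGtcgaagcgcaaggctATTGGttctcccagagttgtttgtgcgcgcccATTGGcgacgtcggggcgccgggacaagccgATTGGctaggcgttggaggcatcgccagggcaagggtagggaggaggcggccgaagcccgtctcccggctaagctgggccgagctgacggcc
Ucp3: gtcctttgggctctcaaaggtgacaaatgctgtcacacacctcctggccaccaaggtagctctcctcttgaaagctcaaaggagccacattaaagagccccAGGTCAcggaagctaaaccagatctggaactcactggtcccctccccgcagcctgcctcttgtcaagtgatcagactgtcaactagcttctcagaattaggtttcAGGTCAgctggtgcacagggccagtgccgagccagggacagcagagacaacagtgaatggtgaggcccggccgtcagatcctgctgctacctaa
The motifs searched were the nuclear receptor half-site AGGTCA, its direct repeat with 1 base between, the forkhead motif GTAAACA, the E-box CACGTG, the GC box GGGCGG, the CCAAT box of those letters, and the TATA box TATAAA; each match to the repeat also holds the half-site. The half-site occurred in 16.3% of 32851 RefSeq windows of this length, the repeat in 0.0396%, the forkhead motif in 3.65%, the E-box in 7.15%, the GC box in 35.7%, CCAAT in 37.4% and TATAAA in 13.6%. The Pdk4 window held 1 CCAAT match, 131 bases before the start (-131). RefSeq gives Pdk2 a second start, whose window at chr11:95040826-95041125 held no match to these motifs. The Pdk2 window printed held an E-box at -126 and CCAAT matches at -105, -73 and -42, and the Ucp3 window held half-sites at -149 and -44. Windows were matched for 9 of the 10 members. A match is a description of letters in these 300 bases, not of binding.

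Pdk2, the kinase gene expressed most evenly, ranged from 131 to 153 scaled TPM in C57, 138 to 158 in aged Hap-I, 121 to 159 in aged western-diet and 135 to 155 in adult western-diet hearts. The 4 groups overlapped throughout. Its difference between aged western-diet and aged Hap-I hearts was -0.06, with a 95% interval of -0.25 to 0.13 (limma, adjusted p = 0.786). Between aged western-diet and C57 hearts it was 0.02, with an interval of -0.19 to 0.23 (limma, adjusted p = 0.898).

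Pdk1, a kinase gene known as a target of the hypoxia factor Hif1a, measured 24.8, 31.4 and 22.96 scaled TPM in C57 hearts. Aged Hap-I hearts gave 30.0 to 32.3 and adult western-diet hearts 29.6 to 46.6, and aged western-diet hearts gave 39.1, 47.9, 42.5, 40.7 and 28.0. Pdk1 was higher in aged western-diet than in C57 hearts by 0.56 ± 0.17 on the log2 scale (limma, adjusted p = 0.0264), although aged western-diet replicate 5 lay within the C57 range. This call was lost without C57 replicate 1 (limma, adjusted p = 0.0962) or 3 (0.12), without aged western-diet replicate 2 (0.0541) or 3 (0.0542), and with Y-linked transcripts as a covariate (0.37 ± 0.17, 0.16). With the atrial covariate the difference was 0.38 ± 0.21 (limma, adjusted p = 0.279). Pdk1 and Pdk4 differed in which group was highest: aged western-diet hearts for Pdk1, with a mean of 39.6 ± 7.3 (n = 5), and adult western-diet hearts for Pdk4.

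Pdk3, the least abundant kinase gene, measured 2.35, 1.38 and 1.65 scaled TPM in C57 and 1.32, 0.71, 0.62 and 1.21 in adult western-diet hearts. These groups did not overlap, and the difference of -0.51 ± 0.16 did not pass the test (limma, adjusted p = 0.087). Aged Hap-I hearts gave 0.89 to 1.61 and aged western-diet hearts 0.95 to 1.48. At such levels a log2 difference of scaled TPM + 1 understates the change.

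Because Pdk2 was steady, Pdk4 set the make-up of the kinase transcript pool. Pdk1, Pdk2 and Pdk3 summed to between 150.2 and 200.5 scaled TPM in every heart. Pdk4 made up 13.4% to 18.1% of the summed 4 kinases in aged Hap-I hearts and 27.9% to 44.1% in aged western-diet hearts. It made up 46.7% to 60.0% in adult western-diet hearts and 24.4%, 38.2% and 23.5% in C57 hearts. Pdk2 was the most abundant kinase transcript in all aged Hap-I and C57 hearts, at 67.9% to 71.1% and 50.9% to 65.2% of the pool. In adult western-diet hearts Pdk4 exceeded Pdk2 in every library, with a Pdk4 to Pdk2 ratio of 1.054 to 1.852. The ratio in aged western-diet hearts ran from 0.51 to 1.01. These shares restate the Pdk4 levels and are given without a test.

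**Figure D2:**
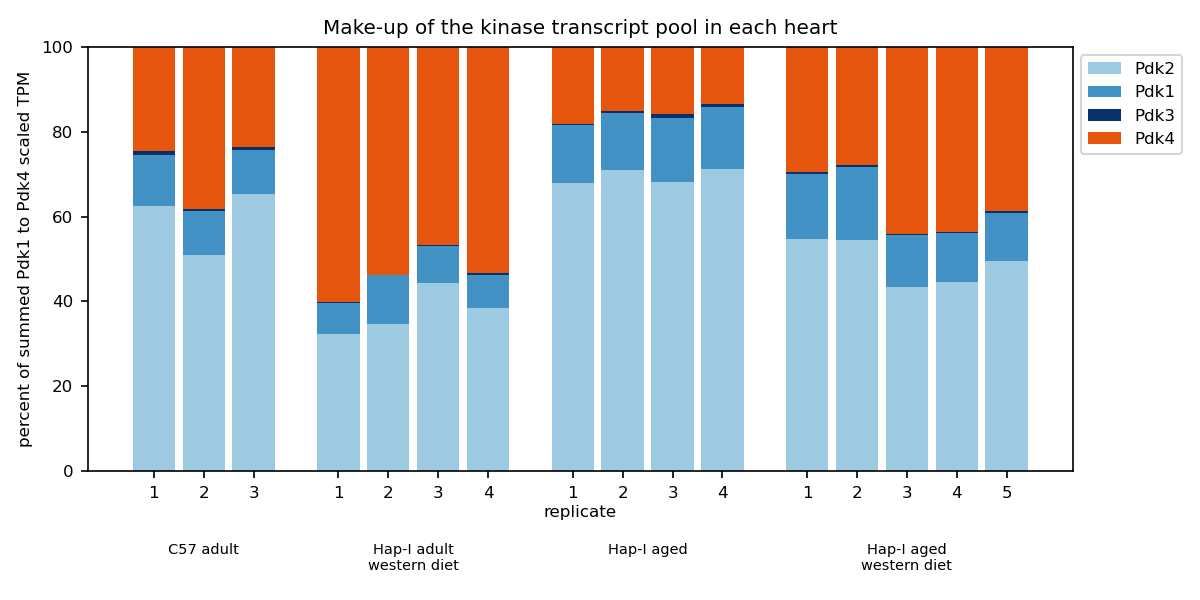
Percent of the summed scaled TPM of Pdk1 to Pdk4 held by each kinase gene (stacked bars), 1 bar per heart, by group. Pdk4 holds 13.4% to 18.1% in aged Hap-I hearts and 46.7% to 60.0% in adult western-diet hearts.

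Of the phosphatases, Pdp1, the calcium-stimulated isoform of muscle, was higher in aged Hap-I than in C57 hearts. It measured 10.5, 11.4 and 7.8 scaled TPM in C57 and 13.3, 13.3, 16.2 and 15.0 in aged Hap-I hearts, without overlap. The log2 difference was 0.51 ± 0.14 (limma, adjusted p = 0.0272), a 1.43-fold higher level. It was lost without C57 replicate 1 (limma, adjusted p = 0.0668) or 3 (0.152), without aged Hap-I replicate 3 (0.0811) or 4 (0.0735), and with the atrial covariate (0.0503). In all, the call passed in 25 of 33 alternatives. The correlation of a library with transcript length did not overlap between C57 and aged Hap-I hearts either. The part of transcript length in the Pdp1 levels was not tested further. Aged western-diet hearts measured 11.9, 12.8, 11.9, 11.5 and 9.2, below every aged Hap-I heart, and that difference of -0.32 ± 0.12 did not pass (limma, adjusted p = 0.228). Adult western-diet hearts lay between, at 10.3 to 14.7.

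Pdp2, the isoform known to respond to insulin in fat tissue, measured 4.97 to 5.28 scaled TPM in aged Hap-I hearts, the narrowest range of its 4 groups. Adult western-diet hearts gave 3.37 to 4.52, without overlap, and the difference of 0.32 ± 0.14 between aged Hap-I and these adults did not pass (limma, adjusted p = 0.199). C57 hearts gave 3.49, 5.75 and 3.27, and aged western-diet hearts 3.24 to 5.15. Pdp1 supplied 66.5% to 77.7% of the summed phosphatase transcripts in all 16 hearts. The ratio of summed kinase to summed phosphatase transcripts was 9.52 to 12.3 in aged Hap-I, 15.8 to 23.6 in aged western-diet, 19.6 to 29.5 in adult western-diet and 15.0 to 19.7 in C57 hearts. The aged Hap-I hearts lay below all others in this ratio, which holds Pdk4 and is therefore a description.

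Pdpr encodes the regulatory subunit of the Pdp1 phosphatase and is no member of the set of 10. Pdpr measured 3.70, 6.52 and 3.31 scaled TPM in C57 hearts, 11.2, 9.05, 14.1 and 14.3 in aged Hap-I and 17.3, 13.7, 14.5, 14.8 and 7.6 in aged western-diet hearts. Both aged groups lay above every C57 heart. The log2 difference from C57 was 1.28 ± 0.27 in aged Hap-I (limma, adjusted p = 0.0104) and 1.41 ± 0.26 in aged western-diet hearts (limma, adjusted p = 0.00229). Without C57 replicate 1 or 3 the first was 1.19 (adjusted p = 0.0532) and 1.13 (0.0619). Restricted to libraries holding Y-linked transcripts, 2 of them aged western-diet, the second was 1.13 (limma, adjusted p = 0.0504), where 7.47% of all genes passed. Adult western-diet hearts, at 4.78, 7.05, 7.41 and 11.1, did not differ from C57 beyond the test (0.64 ± 0.27, limma, adjusted p = 0.202). The correlation of a library with transcript length was -0.16, -0.25, -0.21 and 0.18 in these adult western-diet hearts, in the same order. It was 0.31, -0.12, 0.21, -0.18 and 0.14 in the aged western-diet hearts. Between C57 and aged Hap-I hearts neither this correlation nor Pdpr overlapped. With the length correction the differences from C57 were 1.18 in aged Hap-I and 1.32 in aged western-diet hearts (limma, adjusted p = 0.0134 and 0.00262). The part of transcript length in the Pdpr levels was not tested further.

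**Figure D3:**
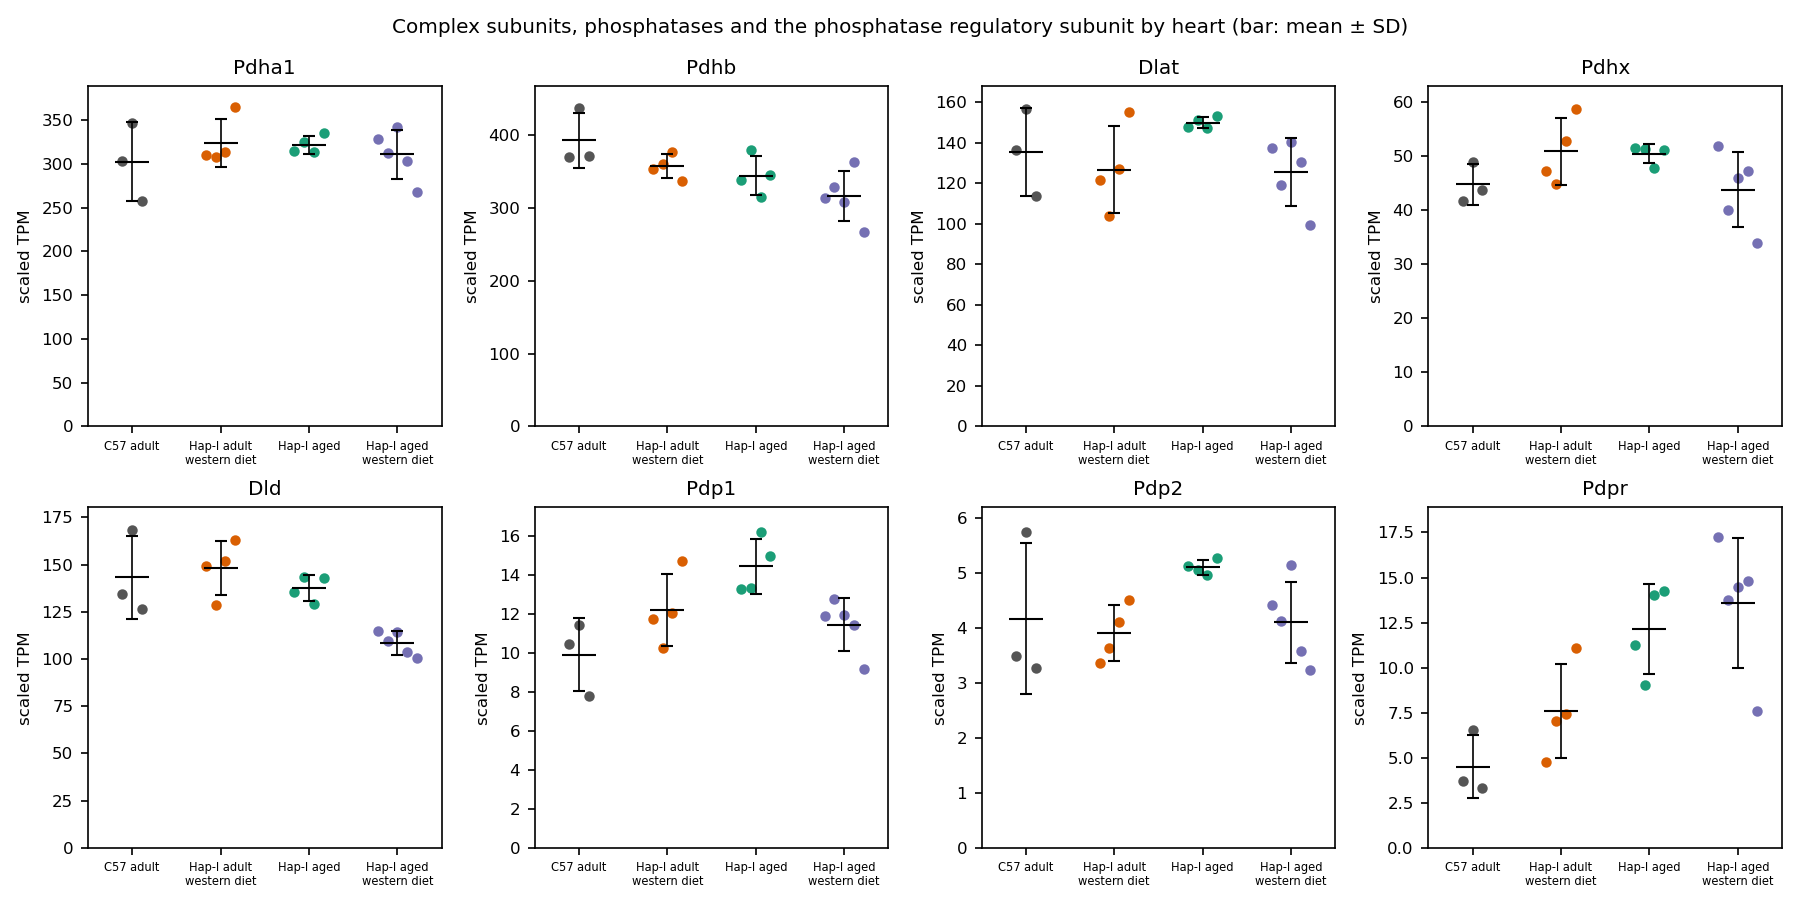
Scaled TPM (y axis, from 0) of the core subunits, Dld, the phosphatases and Pdpr in each heart (points) by group, with mean and SD (bars). Pdpr in both aged groups lies above every C57 heart, and Dld in aged western-diet hearts lies below every other library.

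The E1 subunits form the decarboxylase that the kinases act on. Pdha1, the X-linked E1 alpha gene that carries the phosphorylated serines, measured 257 to 347 scaled TPM in C57, 313 to 335 in aged Hap-I, 268 to 342 in aged western-diet and 307 to 365 in adult western-diet hearts. The groups overlapped in all 6 comparisons, and the adjusted p-values (limma) ranged from 0.601 to 0.982. Its largest difference, between adult western-diet and C57 hearts, was 0.10, with a 95% interval of -0.14 to 0.34.

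Pdhb, the E1 beta gene, measured 369.8, 437 and 372 scaled TPM in C57 hearts and 313, 329, 309, 363 and 268 in aged western-diet hearts. It was lower in the latter by -0.32 ± 0.10 on the log2 scale (limma, adjusted p = 0.0419), without overlap. Aged Hap-I hearts gave 315 to 379 and adult western-diet hearts 338 to 377. The Pdhb call passed in 11 of 33 alternatives. With quantile normalization the difference was -0.05 (limma, adjusted p = 0.74). Omitting any C57 replicate, aged Hap-I replicate 1 or 4, aged western-diet replicate 1, 2, 3 or 5, or adult western-diet replicate 1 or 3 gave adjusted p-values of 0.0515 to 0.17 (limma).

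The ratio of Pdha1 to Pdhb, 2 subunits that pair in equal numbers, was 0.69 to 0.82 in C57, 0.86 to 0.99 in aged Hap-I, 0.84 to 1.11 in aged western-diet and 0.83 to 1.08 in adult western-diet hearts. Each Hap-I heart lay above each C57 heart in this ratio, which was not tested. Of the 31-base words in their transcripts, 15.8% for Pdha1 and 17.9% for Pdhb also occur in other genes, mostly Map3k15 and Gm6123. Reads from those stretches may be divided between the genes, so both levels are less certain than those of Pdk2, Pdk3 and Dlat, which share no such word.

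Dlat encodes E2, the lipoate-bearing core, and Pdhx the E3-binding protein that docks Dld to it. Dlat measured 148, 151, 147 and 153 scaled TPM in aged Hap-I and 138, 119, 140.4, 131 and 99.3 in aged western-diet hearts, without overlap. That difference of -0.27 ± 0.13 did not pass (limma, adjusted p = 0.319). C57 hearts gave 114 to 157 and adult western-diet hearts 104 to 155. Pdhx measured 41.6 to 48.9 in C57, 47.8 to 51.4 in aged Hap-I, 33.9 to 51.8 in aged western-diet and 44.8 to 58.6 in adult western-diet hearts, and the groups overlapped in every comparison. Its adjusted p-values (limma) ranged from 0.302 to 0.983. The Dlat to Pdhx ratio was 2.31 to 2.64 in adult western-diet hearts and 2.60 to 3.28 in the other groups.

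Dld, the E3 subunit that this complex shares with the 2-oxoglutarate and branched-chain dehydrogenases, is no member of the set of 10. Dld measured 115, 109.8, 114, 104 and 101 scaled TPM in aged western-diet hearts, below all other libraries, which ran from 127 to 168. Dld was lower in aged than in adult western-diet hearts by -0.44 ± 0.09 (limma, adjusted p = 0.0261). It was lower in aged western-diet than in C57 hearts by -0.39 ± 0.10 (limma, adjusted p = 0.0159). Against aged Hap-I hearts the difference of -0.34 ± 0.09 did not pass (limma, adjusted p = 0.109). The first call was lost without aged western-diet replicate 3 (0.0545) or adult western-diet replicate 1 (0.0879) or 3 (0.0779), and the second without C57 replicate 2 (-0.27, 0.0868). The calls passed in 23 and 25 of 33 alternatives, with the highest adjusted p (limma) at 0.627 with no scaling and 0.315 with TPM rescaled without mitochondrial transcripts. Of the 7 genes tested for E3, lipoylation and cofactor supply, Dld and Pdpr were the ones called in any comparison. Of all genes, 2.39% passed between aged and adult western-diet hearts. Against C57, 11.2% passed in aged Hap-I and 21.9% in aged western-diet hearts.

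**Figure D4:**
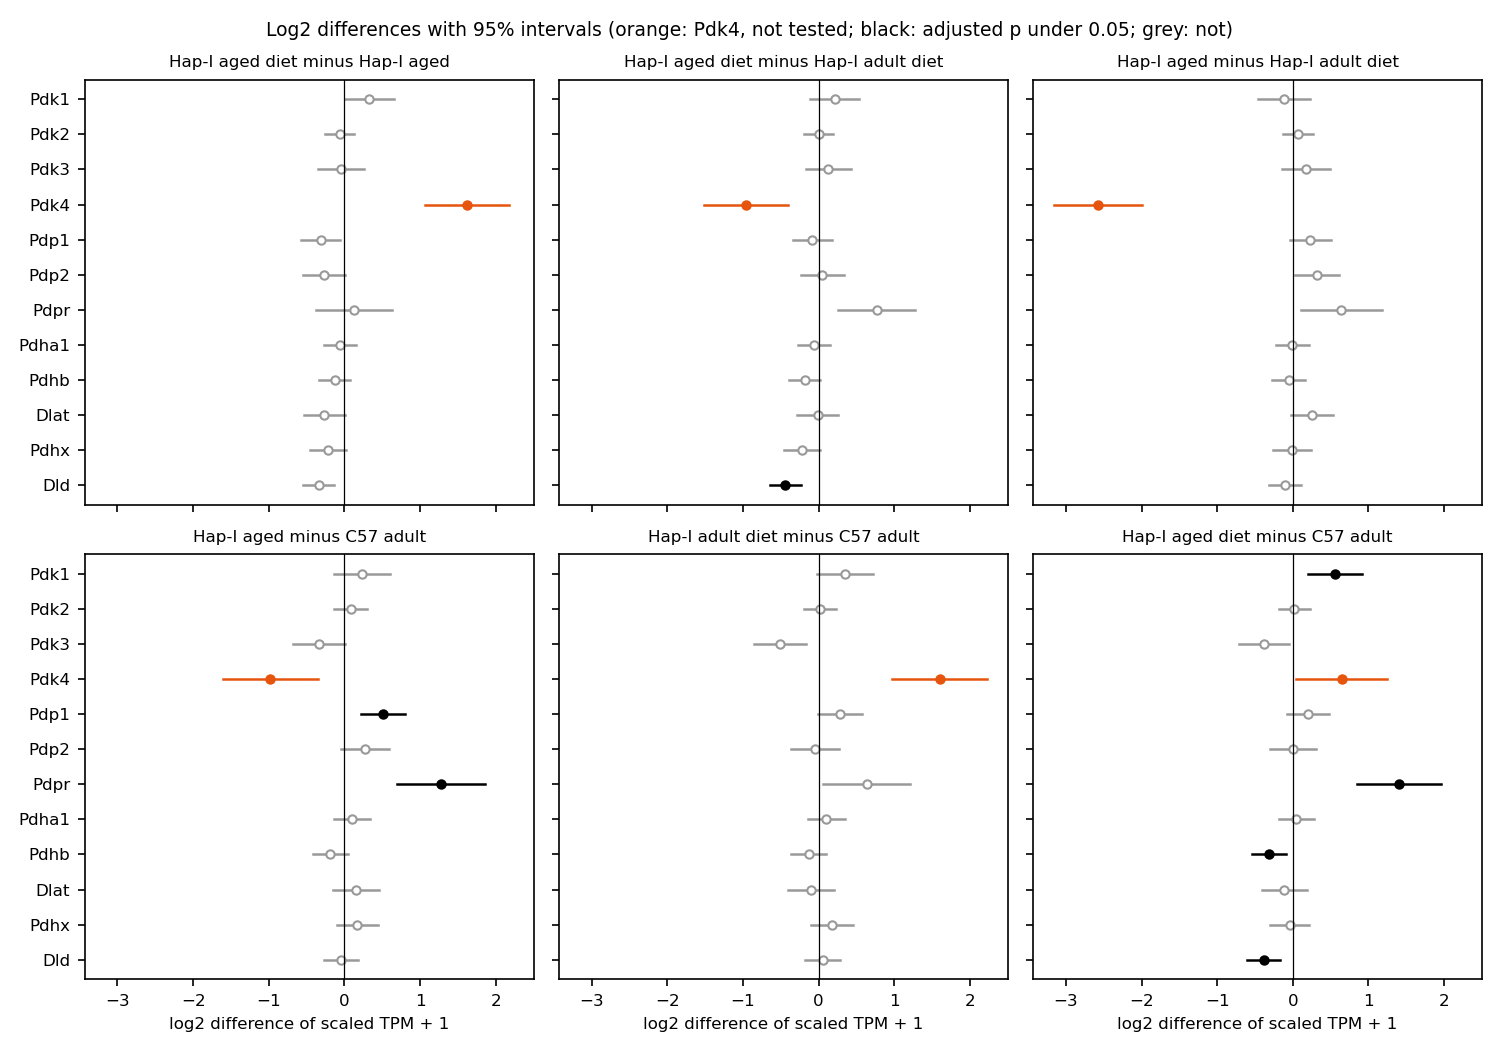
Log2 differences of scaled TPM + 1 (x axis) with 95% intervals (lines) for the 10 members, Dld and Pdpr in 6 comparisons (panels). Pdk4 (orange, not tested) spans -2.58 to 1.62, and the black points are the calls at an adjusted p under 0.05, 3 of them members.

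Within groups, some subunits and phosphatases moved together from heart to heart. Over the 16 libraries, the correlation of deviations from the group means was 0.91 for Pdha1 and Dlat, 0.89 for Pdha1 and Pdp2, 0.85 for Pdk2 and Pdhb, and 0.85 for Dlat and Pdhx. Pdk4 correlated at most 0.43 with any other member, which was Pdp2. These points share each library's scaling and RNA, and the values are descriptions.

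Over all 16 libraries, the gene most like Pdk4 was Ucp3, an uncoupling protein gene and PPAR alpha target, at r = 0.93 among 6040 genes with a mean of at least 5 scaled TPM. Next were Angptl4 (0.89), a lipoprotein lipase inhibitor gene, Slc25a22 (0.89), a mitochondrial glutamate carrier gene, Iba57 (0.88), an iron-sulfur cluster assembly gene, and Lpcat3 (0.86), a phospholipid acyltransferase gene. The middle 95% of the ranked genes lay between -0.60 and 0.64. The most opposed were Gm5641 (-0.86), Synpo2l (-0.85) and Ddr1 (-0.83). These correlations include the group differences, and all points share library scaling.

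Of deviations within groups, Ucp3 was again the most like Pdk4 at r = 0.87, followed by Klhdc4 (0.77), Mospd1 (0.76), Gclm (0.74) and Micu2 (0.73). Angptl4 reached 0.47 within groups. Ucp3 measured 10.5, 23.95 and 9.42 scaled TPM in C57 hearts, where replicate 2 was the highest for Pdk4 as well. It measured 8.41 to 10.7 in aged Hap-I, 12.2 to 25.4 in aged western-diet and 27.4 to 50.1 in adult western-diet hearts. Ucp3 and Angptl4 are named here for following Pdk4 over these same libraries, group differences included. Tests of their group differences are therefore no result independent of Pdk4. Ucp3 was lower in aged Hap-I than in adult western-diet hearts by -1.84 ± 0.27 (limma, adjusted p = 0.00347), and Angptl4 by -2.04 ± 0.28 (limma, adjusted p = 0.00218). Both calls were lost in the 11 libraries holding Y-linked transcripts (-1.54, adjusted p = 0.146, and -1.53, adjusted p = 0.0793). Only 2 adult western-diet libraries remained there, and 0.105% of all genes passed, against 2.14% with all 16 libraries.

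**Figure D5:**
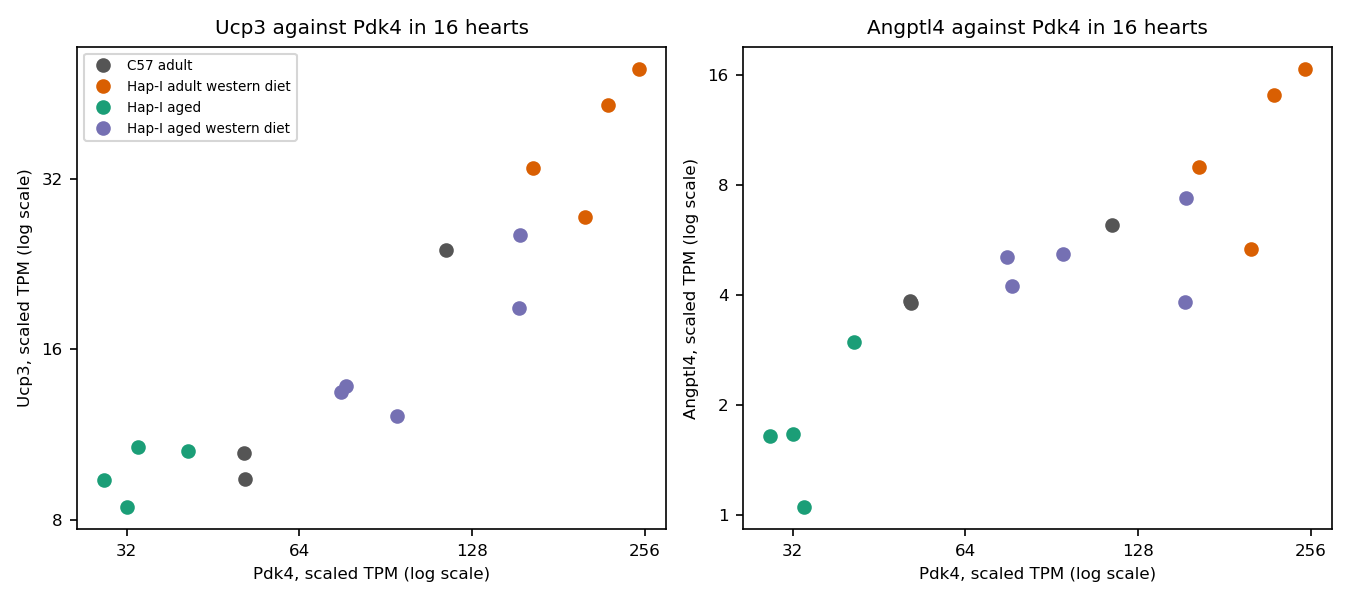
Ucp3 (left) and Angptl4 (right) against Pdk4 in each of 16 hearts, in scaled TPM on log axes, with colours for the groups. The correlation is 0.93 for Ucp3 and 0.89 for Angptl4, and aged Hap-I hearts hold the lowest Angptl4 values, 1.054 to 2.987.

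PPAR alpha targets are the genes of fatty acid handling with which Pdk4 is usually grouped. Of 24 tested, 19 had a negative difference and 3 were lower in aged Hap-I than in adult western-diet hearts (Ucp3, Angptl4 and the lipid droplet gene Plin2, the last named after its value was seen), with a list median of -0.35 against 0.00 over all genes, of which 2.14% passed in either direction. Between aged and adult western-diet hearts 2 were lower, Ucp3 (-1.17 ± 0.25, limma, adjusted p = 0.0261) and Ehhadh, a peroxisomal oxidation gene (-0.70 ± 0.14, limma, adjusted p = 0.02), with 22 of 24 negative and a list median of -0.25 against -0.01 over all genes, of which 2.39% passed. The same pair was higher in adult western-diet than in C57 hearts, where 3.45% of all genes passed, by 1.42 ± 0.29 and 0.82 ± 0.16 (limma, adjusted p = 0.0161 and 0.0118). Between aged western-diet and aged Hap-I hearts none passed, and Angptl4 differed by 1.13 ± 0.27 (limma, adjusted p = 0.0696). Angptl4 and Cpt2, a mitochondrial carnitine transferase gene, were the 2 lower in aged Hap-I than in C57 hearts, where 11.2% of all genes passed (-0.999 ± 0.304 and -0.51 ± 0.14, limma, adjusted p = 0.0459 and 0.0263). Only Cpt2 of the 24 was lower in aged western-diet than in C57 hearts, where 9.57% of all genes were lower (-0.51 ± 0.13, limma, adjusted p = 0.0116). Several of these calls were lost on leaving out 1 library, where fewer of all genes passed as well. Between the western-diet groups 0.255% of all genes passed without adult western-diet replicate 1 and 0.403% without replicate 3. Between adult western-diet and C57 hearts 0.661% passed without C57 replicate 1 and 0.880% without replicate 3. Between the western-diet groups, Ucp3 was lost without aged western-diet replicate 1 or 3 or adult western-diet replicate 1, 2 or 3 (adjusted p = 0.0552 to 0.105), and Ehhadh without adult western-diet replicate 1 or 3 (0.0758 and 0.0518). Ucp3 passed there in 23 of 33 alternatives and Ehhadh in 26 of 32, with the highest adjusted p, 0.549 and 0.359, in the libraries holding Y-linked transcripts. Those held 2 libraries of each western-diet group, and 0.105% of all genes passed. Between adult western-diet and C57 hearts both were lost without C57 replicate 1 or 3 (0.065 to 0.0882). Angptl4 between aged Hap-I and C57 hearts passed in 15 of 33 alternatives and Cpt2 in 23, neither of them without any 1 C57 replicate. Cpt2 between aged western-diet and C57 hearts was lost without C57 replicate 2 (0.057).

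Of 24 known transcriptional regulators of Pdk genes tested, 9 were higher in aged western-diet than in C57 hearts and none lower, with a list median of 0.29 against 0.00 over all genes, of which 12.3% were higher. In aged Hap-I hearts 5 were higher than in C57 and none lower (median 0.20 against -0.01, with 7.18% of all genes higher). In adult western-diet hearts, where 3.45% of all genes passed, 1 was higher, Ppargc1b (0.61 ± 0.15, limma, adjusted p = 0.0427). That call passed in 13 of 32 alternatives and not without any 1 C57 replicate. Besides the 4 genes named by rule (Ppara, Ppargc1b, Esrrg and Hif1a), the 9 held Ppard, Rxra, Nr3c2, Klf15 and Thra, named after their values were seen, and the 5 held Nr3c2. None passed in the 3 comparisons among Hap-I hearts. Ppargc1b, a coactivator gene, measured 0.96 to 1.15 scaled TPM in C57, 2.08 to 2.79 in aged Hap-I and 2.58 to 4.09 in aged western-diet hearts, and its call against C57 held in all 32 alternatives run for each aged group. Ppara, the gene of the fatty acid receptor itself, measured 2.02 to 3.28 in C57, 4.95 to 10.4 in aged Hap-I, 3.84 to 12.9 in aged western-diet and 2.49 to 6.64 in adult western-diet hearts. Its difference from C57 was 1.29 ± 0.35 in aged Hap-I (limma, adjusted p = 0.0263) and 1.56 ± 0.33 in aged western-diet hearts (limma, adjusted p = 0.0048). The order of the groups for Ppara thus differed from that for Pdk4, which was lowest in aged Hap-I hearts. Restricted to libraries holding Y-linked transcripts, the second Ppara difference was 0.97 (limma, adjusted p = 0.0928), where 7.47% of all genes passed. The first was lost without C57 replicate 1 (0.0962) or 3 (0.109) or aged Hap-I replicate 3 (0.0737) or 4 (0.0813).

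Of 13 genes tested for pyruvate supply and its other fates, 3 were lower and 2 higher in aged western-diet than in C57 hearts, with a list median of -0.29 against 0.00 over all genes, of which 9.57% were lower and 12.3% higher. Ldhb, the heart-type lactate dehydrogenase gene, measured 363 to 434 scaled TPM in C57 hearts and 139 to 265 in the Hap-I groups. Ldhb was lower by -1.25 ± 0.20 in aged western-diet (limma, adjusted p = 0.00087) and by -1.12 ± 0.21 in aged Hap-I hearts (limma, adjusted p = 0.00584), in all 33 alternatives each. Mpc2, a subunit gene of the mitochondrial pyruvate carrier, was lower by -0.58 ± 0.16 in aged western-diet (limma, adjusted p = 0.0179) and by -0.57 ± 0.17 in aged Hap-I hearts (limma, adjusted p = 0.0372). Without C57 replicate 2 these became -0.49 (adjusted p = 0.0748) and -0.48 (0.113), and the second was lost also without C57 replicate 1 or 3 or aged Hap-I replicate 1, 3 or 4 (0.0696 to 0.0979). Me1 and Me2, malic enzyme genes, were the 2 higher, and Me3, named after its value was seen, was the other lower gene. Me1 was lost without C57 replicate 1 (0.0724) or 3 (0.0668). In aged Hap-I hearts Me2 was higher and Ldhb and Mpc2 were lower than in C57, where 11.2% of all genes passed and 7.18% were higher. The Me2 call was lost without any 1 C57 or aged Hap-I replicate (0.0521 to 0.0856), and no gene of the list passed in the other 4 comparisons.

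The list of related dehydrogenases that use the same E3 also held Bckdk and Ppm1k, a kinase and a phosphatase gene. It showed members called in both directions. Of 8 tested, 2 were lower and 1 higher in aged western-diet than in C57 hearts, with a list median of -0.15 against 0.00 over all genes, of which 9.57% were lower and 12.3% higher. Bckdhb, an E1 subunit gene of the branched-chain complex, fell from 46.6 ± 6.0 (n = 3) to 28.3 ± 3.6 scaled TPM (n = 5), a log2 difference of -0.70 ± 0.11 (limma, adjusted p = 0.000632). It was called in all 33 alternatives. Bckdha, its E1 partner gene, was lower by -0.54 ± 0.13 (limma, adjusted p = 0.00764), and Dhtkd1 was higher by 0.53 ± 0.16 (limma, adjusted p = 0.027; 0.35, adjusted p = 0.164 without C57 replicate 3). In aged Hap-I hearts Bckdhb was lower and Dlst, the E2 gene of the 2-oxoglutarate complex, higher than in C57 (0.79 ± 0.22, limma, adjusted p = 0.0327). Of all genes, 11.2% passed there and 7.18% were higher. Dlst was lost without C57 replicate 1 or 3 or aged Hap-I replicate 1, 3 or 4 (0.0708 to 0.152), and Bckdhb without C57 replicate 1 or 2 or aged Hap-I replicate 4 (0.0667 to 0.0773). No gene of the list passed in the other 4 comparisons.

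Of 18 genes of glucose entry and glycolysis, 5 were lower and 1 higher in aged western-diet than in C57 hearts, with a list median of -0.18 against 0.00 over all genes, of which 9.57% were lower and 12.3% higher. Pfkfb2, the heart isoform gene of the enzyme that makes and removes the phosphofructokinase activator, was the one higher, at 3.88 to 4.95 scaled TPM in C57 and 10.01 to 19.02 in aged western-diet hearts (1.51 ± 0.15, limma, adjusted p = 0.000108). It was higher in aged Hap-I hearts also, at 11.99 to 13.92 (1.34 ± 0.16, limma, adjusted p = 0.000651), and both calls held in all 33 alternatives. Adult western-diet hearts, at 6.76 to 10.3, were above C57 too (0.78 ± 0.16, limma, adjusted p = 0.0184, passing in 24 of 33 alternatives) and below aged western-diet hearts, which were higher by 0.73 ± 0.14 (limma, adjusted p = 0.0194, passing in 27). The first of these was lost without C57 replicate 1 or 3 or adult western-diet replicate 2 (0.0536 to 0.0884), and the second without adult western-diet replicate 1 or 3 (0.077 and 0.0531). Pgk1, a glycolytic kinase gene, was lower in aged than in adult western-diet hearts (-0.31 ± 0.07, limma, adjusted p = 0.0261), and lost that call without adult western-diet replicate 1 (0.101) or 3 (0.0713). Eno3, the muscle enolase gene, and Pgk1 were lower in aged western-diet than in C57 hearts (-0.55 ± 0.11 and -0.34 ± 0.07, limma, adjusted p = 0.00285 and 0.00465). With quantile normalization these were -0.21 and -0.12 (adjusted p = 0.37 and 0.448). Slc2a1 and, named after their values were seen, Hk2 and Pgam2 were the other lower genes. Slc2a1, the basal glucose transporter gene, was highest among Hap-I hearts where Pdk4 was lowest, at 4.71 to 5.56 in aged Hap-I hearts. The western-diet groups overlapped, at 2.502 to 4.532 in aged and 2.61 to 3.21 in adult hearts. C57 hearts gave 4.98 to 5.72, and Slc2a1 was lower in adult western-diet hearts than there (-0.73 ± 0.13, limma, adjusted p = 0.00753, passing in 30 of 33 alternatives). It was higher in aged Hap-I than in adult western-diet hearts by 0.71 ± 0.12 (limma, adjusted p = 0.0105). In libraries holding Y-linked transcripts, 2 of them adult western-diet, this was 0.70 (limma, adjusted p = 0.099), where 0.105% of all genes passed. The summed endothelial markers did not overlap between aged Hap-I and adult western-diet hearts either, at 145.5 to 150.3 and 85.7 to 144.8. Their part in the Slc2a1 levels was not tested. Between aged Hap-I and C57 hearts 2 genes of this list were higher and 1 lower, where 11.2% of all genes passed and 7.18% were higher. Besides Pfkfb2 these were Hk1 (0.60 ± 0.17, limma, adjusted p = 0.0334) and Txnip (-1.09 ± 0.27, limma, adjusted p = 0.0207), named after their values were seen. No gene of this list passed between aged western-diet and aged Hap-I hearts.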

How the data were processed

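Heart RNA of 16 mice was sequenced after polyadenylated RNA pull-down and strand-preserving TruSeq preparation, per the labels' protocols. The authors deposited 1 table of TPM per gene, and per the submitters' processing notes the tools were kallisto and DESeq2 with the GRCm38 mouse build, at versions not given in the sources used here. TPM keep no sequencing depth, so the depth is unknown and errors are spreads between animals, which the design text says are separate. kallisto divides reads that match several genes by an estimate.

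The 10 members, the pathway and marker lists and the tests were chosen with earlier results of these data known. The filter was 1 TPM or more in 3 or more libraries and left 11415 genes. Each library was divided by its median-of-ratios size factor (0.678 to 1.231), and log2(scaled TPM + 1) was fitted with limma 3.58.1 in R 4.3.3, with 4 group means, a variance trend and 12 residual degrees of freedom. P-values were two-sided, and genes were called at an adjusted p under 0.05. On simulated data, 95% of genes changed by 1 on the log2 scale and 100% of those changed by 2 were recovered between aged western-diet and aged Hap-I hearts (11415 genes). The simulated noise was normal and independent between genes, and only genes with a mean log2 level above 2 were changed. Smaller changes, such as the 0.33 of Pdk1 in that comparison, were not simulated, so recovery of differences of that size is unknown.

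Named genes were all members, Dld and Pdpr, up to 4 called genes per list by smallest adjusted p, and the genes most and least correlated with Pdk4. The alternatives were other scalings, pseudocounts of 0.1 and 0.5, other filters, variance models, library weights, smaller sets of libraries, Y-linked and atrial covariates, and each library left out. A transcript length correction, alone and with the Y-linked covariate, and TPM rescaled without mitochondrial transcripts were added after the data were seen. Mitochondrially encoded transcripts held 31.1% to 46.1% of the scaled TPM. The atrial covariate averaged the log2 levels of the atrial genes Mybphl, Myl4, Myl7 and Sln. The human transgene was not analysed here.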

Additional observations from a re-analysis of the deposited data

Results flagged for a closer look

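Levels of the 10 members, Dld and Pdpr and 4 shares or ratios of members were searched for a library far from the rest of its group, in 48 sets of 4 or 5 hearts, of which 3 held one. Chance alone marks about 5% of sets. Pdk1 reached 46.6 scaled TPM in adult western-diet replicate 2, where the nearest heart of its group had 30.5. Pdha1 reached 365 in adult western-diet replicate 4, against 313 in the nearest. Pdhx was at 47.8 in aged Hap-I replicate 3, against 51.0 in the nearest, within a group that spanned less than any other for this gene. Each stands in a group whose comparisons gave no call for that gene.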

How the results depend on the processing

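Pdk4 kept its direction in all 6 comparisons under each of 33 alternatives. For the other 9 members, differences that passed in no setting often lay near 0, and 23 of their 54 differences changed sign under at least 1 alternative; no called difference did. Members other than Pdk4 called between aged Hap-I and C57 hearts numbered 1, and 0 with no scaling, with TPM rescaled without mitochondrial transcripts, with no filter, with the atrial covariate and at an adjusted p under 0.01, 3 with library weights, and 0 to 2 on leaving out 1 library. Between aged western-diet and C57 hearts they numbered 2, and 0 with no scaling, with no filter, with only the groups compared, with the Y-linked covariate, with only libraries holding Y-linked transcripts, with the atrial covariate, with the length correction and Y-linked covariate together, and at an adjusted p under 0.01. They numbered 1 there with TPM rescaled without mitochondrial transcripts, with a filter at 5 TPM and with the length correction, and 0 to 2 on leaving out 1 library. Library weights gave 2 calls between aged Hap-I and adult western-diet hearts (Pdp2 and Dlat) and 1 between adult western-diet and C57 hearts (Pdk3), where the model without weights gave 0. Without scaling, the median log2 difference of all genes moved by up to 0.27, between aged Hap-I and adult western-diet hearts. No paired analysis was possible because the labels give the animals no shared numbers. The causes of these changes were not tested. Depth is unknown, so no limit from counting error can be given for Pdk3 or other genes near 1 TPM.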
